A study of Homo sapiens with 10 samples.

Results

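The genes of sterol and fatty acid synthesis were examined in U2932, a cell line from a diffuse large B cell lymphoma. The 35 members were taken by gene symbol, and all 35 of them were among the 11961 genes that passed a filter on low counts, out of 21174 gene identifiers in the table. They comprise 24 sterol genes (8 of the mevalonate and isoprenoid pathway, 11 that lead from squalene to cholesterol, and 5 that regulate or carry sterols), 3 genes of fatty acid synthesis, 4 desaturases and 4 elongases. RNA was sequenced from 5 libraries of clones labelled CREBBP+/- (columns Het_6 to Het_10) and 5 libraries of clones labelled CREBBP+/+ (columns WT_1 to WT_5). CREBBP encodes a histone acetyltransferase that serves as a transcriptional coactivator. All clones were grown in RPMI with serum, and the labels give no treatment. The sources used here do not give how the allele was altered or how each clone was derived, nor whether libraries came from separate cultures, so p-values measure only the spread between these libraries.

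Cells make cholesterol from acetyl-CoA through mevalonate, isoprenoids, squalene and lanosterol. When sterols in the endoplasmic reticulum run low, SCAP escorts the SREBP transcription factors, encoded by SREBF1 and SREBF2, to the Golgi for cleavage, and INSIG proteins hold them back when sterols are plentiful; cleaved SREBP-2 chiefly drives sterol genes and SREBP-1c fatty acid genes. Fatty acid synthase makes palmitate, which elongases lengthen and desaturases provide with double bonds, and proliferating B cells draw on both pathways for membrane.

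CREBBP mRNA had 71.4, 77.4, 56.8, 61.5 and 80.7 CPM (counts per 1e+06, on TMM-adjusted library sizes) in Het_6 to Het_10, against 118, 103, 103, 115 and 136 CPM in WT_1 to WT_5, with no overlap. Its log2 fold change was -0.73 (SE 0.12), with an adjusted p of 0.395 by edgeR and 8.68e-05 by DESeq2. Total counts were 18.8 ± 4.86 M for CREBBP+/- libraries, against 19.0 ± 1.92 M for CREBBP+/+ libraries (± SD over 5 libraries each), and Het_9 was the shallowest at 10.6 M. Over all genes, the libraries formed 3 clusters that cross the genotypes: Het_9 with Het_10, then Het_8 with WT_1 and WT_2, then Het_6 and Het_7 with WT_3, WT_4 and WT_5. The same 3 clusters came from 11837 genes, without the members and the other listed genes of sterol and lipid metabolism. The number of clusters was set to 3 for this regrouping and most genes tested were kept, so it is no separate test of the clusters. Het_9 and Het_10 have no CREBBP+/+ library beside them, so in these libraries genotype and cluster cannot be told apart. All 7 B cell markers were detected, with a summed level of 2120 to 3580 CPM for CREBBP+/- libraries, against 2070 to 3550 CPM for CREBBP+/+ libraries. Of markers of other cell types, CD3D, CD2, NKG7, FCGR3A, HBB, COL1A2, FABP4, LEP and TTR were at 0 in every library. Summed levels of the T and NK cell, myeloid, erythroid, adipocyte and hepatocyte lists stayed at or below 1.42 CPM for CREBBP+/- libraries, against 1.36 CPM for CREBBP+/+ libraries, and EPCAM alone gave nearly all of the epithelial sum (13.7 to 26.7 CPM for CREBBP+/- libraries, against 1.64 to 24.8 CPM for CREBBP+/+ libraries).

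Most of the program was at the same order of level in both genotypes, and the members that stood apart were SCD5, a stearoyl-CoA desaturase, and ELOVL7, an elongase of very long chain fatty acids. SCD5 averaged 12.5 ± 8.03 CPM for CREBBP+/- libraries, against 1.10 ± 1.21 CPM for CREBBP+/+ libraries, and ELOVL7 averaged 2.61 ± 1.26 CPM for CREBBP+/- libraries, against 0.636 ± 0.238 CPM for CREBBP+/+ libraries (± SD over 5 libraries each). Neither passed the edgeR threshold over all genes, and both passed that of DESeq2. No sterol gene passed either.

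By the quasi-likelihood test of edgeR, 0 of 35 members had an adjusted p under 0.05 in either direction, as did 0 of 11961 genes (0% higher and 0% lower), and limma-voom also called 0 members. At an unadjusted p under 0.05, 3 members were higher in CREBBP+/- libraries (MSMO1, SCD5 and ELOVL7), against 2.38% of all genes, and 0 were lower, against 2.6% of all genes. DESeq2 called 2 members higher (SCD5 and ELOVL7; 0.1% of all genes) and 0 lower (0.167% of all genes). The genotypes did not overlap for 2 members that were higher in every CREBBP+/- library (SCD5 and ELOVL7; 0.426% of all genes) and for 0 that were lower (0.594% of all genes). The median log2 fold change was 0.05 over the 35 members, of which 25 lay above 0 (71.4%), and -0.01 over all genes tested, of which 47.6% lay above 0. By role it was -0.04 for mevalonate and isoprenoid enzymes (4 of 8 above 0), 0.06 for squalene to cholesterol enzymes (10 of 11) and 0.01 for sterol regulation and transport (3 of 5). It was 0.07 for fatty acid synthesis (2 of 3), 0.14 for desaturases (4 of 4) and 0.25 for elongases (2 of 4). Many of these directions did not hold with the library clusters as a covariate. Of the squalene to cholesterol enzymes, SQLE, LSS, CYP51A1, HSD17B7, EBP and SC5D then fell below 0, while FDFT1, MSMO1, NSDHL and DHCR7 stayed above it. Elsewhere FDPS, SREBF2, INSIG1, STARD4 and FADS2 fell below 0, and HMGCS1 and SREBF1 rose above it.

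**Figure D1:**
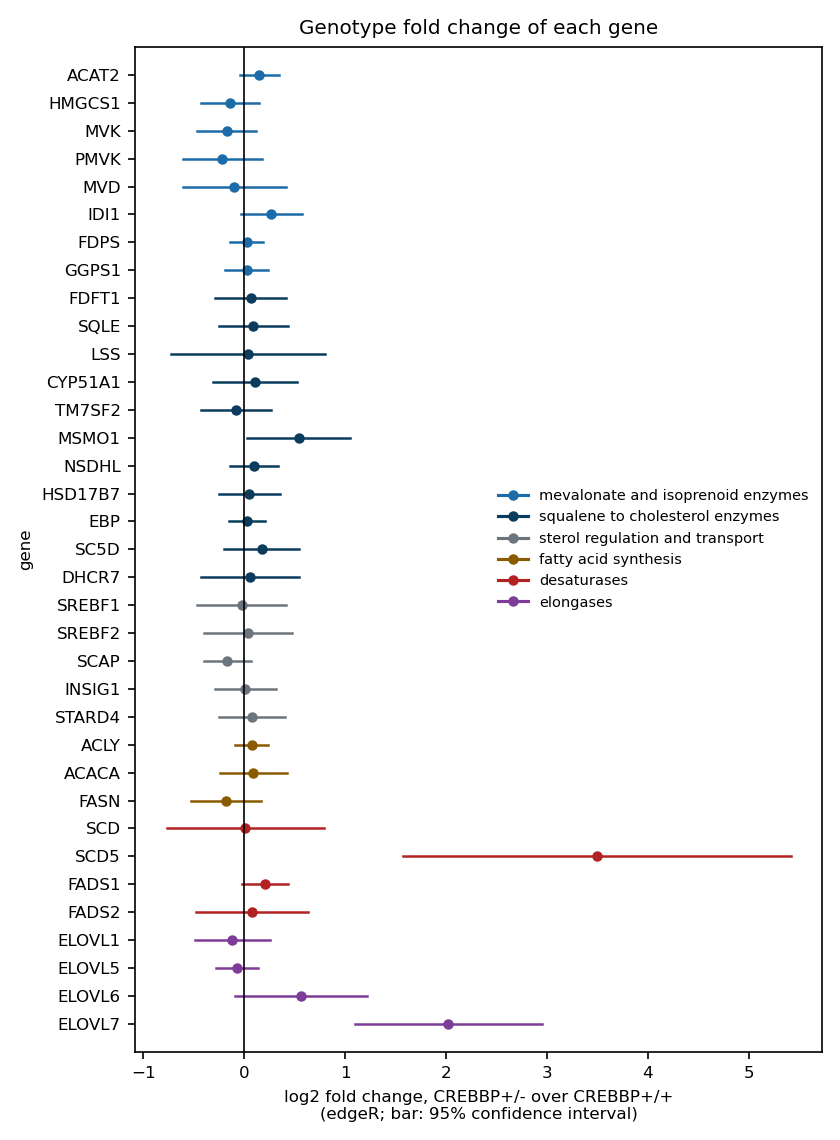
Log2 fold change of each of the 35 members, CREBBP+/- over CREBBP+/+, with 95% confidence intervals from edgeR, ordered by role. SCD5 (3.50) and ELOVL7 (2.02) lie far to the right of the other members, which lie between -0.22 and 0.57.

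Among the mevalonate and isoprenoid enzymes, none of 8 passed either test, and their log2 fold changes ran from -0.22 to 0.27. IDI1, which isomerizes isopentenyl diphosphate (ENSG00000067064), had 132, 132, 134, 209 and 176 CPM in Het_6 to Het_10, against 134, 141, 119, 126 and 128 CPM in WT_1 to WT_5. Het_9 and Het_10 were the highest libraries, and the other CREBBP+/- libraries lay within the CREBBP+/+ range. Its log2 fold change was 0.27 (SE 0.14, edgeR adjusted p = 0.983, DESeq2 adjusted p = 0.872). ACAT2, the cytosolic thiolase that joins acetyl-CoA units (ENSG00000120437), had 45.1, 46.9, 42.2, 54.7 and 50.5 CPM in Het_6 to Het_10, against 42.3, 44.4, 45.6, 42.6 and 41.2 CPM in WT_1 to WT_5. Again Het_9 and Het_10 were highest and the groups overlapped through Het_6 and Het_8 (log2 fold change 0.15, SE 0.09, edgeR adjusted p = 0.988). MVD, the mevalonate diphosphate decarboxylase (ENSG00000167508), chosen after its values were seen, had 39.5, 40.3, 47.3, 70.6 and 88.0 CPM in Het_6 to Het_10, against 68.5, 52.7, 48.7, 62.5 and 72.9 CPM in WT_1 to WT_5. Het_6, Het_7 and Het_8 were below every CREBBP+/+ library, and Het_10 was above every one.

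The other 5 genes of this branch, HMGCS1, MVK, PMVK, FDPS and GGPS1, encode HMG-CoA synthase, mevalonate and phosphomevalonate kinases and the farnesyl and geranylgeranyl diphosphate synthases. HMGCS1 averaged 89.6 ± 12.4 CPM for CREBBP+/- libraries, against 98.6 ± 14.9 CPM for CREBBP+/+ libraries. The kinases MVK and PMVK averaged 16.1 ± 0.907 and 29.1 ± 5.71 CPM for CREBBP+/-, against 18.2 ± 3.51 and 33.8 ± 6.76 CPM for CREBBP+/+ libraries. The synthases FDPS and GGPS1 averaged 156 ± 11.1 and 25.0 ± 2.57 CPM for CREBBP+/-, against 154 ± 6.47 and 24.6 ± 1.12 CPM for CREBBP+/+ libraries. Each of the 5 differences was smaller than the larger SD of its groups. Exons of ACAT2 overlap those of TCP1 over 17.2% of their length. Those of HMGCS1, GGPS1, FDPS and IDI1 overlap other annotated loci over 37.7%, 37.3%, 18.6% and 15%. The overlap of GGPS1 is on its own strand, and the others named are on the opposite strand. Whether counting used strand, and how reads on several loci were treated, is not stated, so these counts may be affected.

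Of the 11 enzymes that lead from squalene to cholesterol, none passed either test over all genes, and log2 fold changes ran from -0.08 (TM7SF2) to 0.54 (MSMO1). MSMO1, the sterol C4-methyl oxidase (ENSG00000052802, chromosome 4, 165327667 to 165343164, GRCh38), had 15.2, 17.2, 17.4, 35.2 and 26.3 CPM in Het_6 to Het_10, against 19.3, 15.4, 13.7, 14.0 and 14.0 CPM in WT_1 to WT_5. Het_9 and Het_10 lay above every other library, and the other 3 CREBBP+/- libraries lay within the CREBBP+/+ range. The log2 fold change was 0.54 (SE 0.23, unadjusted p = 0.0397, edgeR adjusted p = 0.977, DESeq2 adjusted p = 0.719). It was 0.13 without Het_9 and Het_10, with an edgeR adjusted p near 1 (0.9998).

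SC5D, the lathosterol desaturase (ENSG00000109929), had 120, 121, 88.0, 154 and 138 CPM in Het_6 to Het_10, against 92.9, 84.3, 111, 129 and 133 CPM in WT_1 to WT_5. Het_9 and Het_10 were again highest, while Het_8 lay with WT_1 and WT_2 at the low end. Its log2 fold change was 0.17 (SE 0.17, edgeR adjusted p = 0.989). LSS, lanosterol synthase, which closes the sterol rings (ENSG00000160285, chromosome 21, 46188141 to 46228824), had 221, 224, 116, 227 and 254 CPM in Het_6 to Het_10, against 105, 92.2, 247, 263 and 307 CPM in WT_1 to WT_5. The 3 low libraries, Het_8, WT_1 and WT_2, belong to 1 cluster and to both genotypes, and the genotypes overlapped fully (log2 fold change 0.04, SE 0.35, edgeR adjusted p = 0.997). The remaining 8 enzymes (FDFT1, SQLE, CYP51A1, TM7SF2, NSDHL, HSD17B7, EBP and DHCR7) had log2 fold changes between -0.08 and 0.11. CYP51A1, the lanosterol demethylase, averaged 62.0 ± 13.5 CPM for CREBBP+/- libraries, against 57.5 ± 13.7 CPM for CREBBP+/+ libraries. Its exons are shared over 68.2% of their length with a locus that reads through it, and those of EBP over 36.4% with a locus on the same strand. DHCR7, which reduces the last double bond on one route to cholesterol, averaged 56.4 ± 11.3 CPM for CREBBP+/- libraries, against 54.2 ± 17.6 CPM for CREBBP+/+ libraries.

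SREBF2, the SREBP-2 gene (ENSG00000198911, chromosome 22, 41833105 to 41907306), showed the clusters and not the genotypes. It had 190, 193, 322, 306 and 321 CPM in Het_6 to Het_10, against 325, 304, 207, 241 and 220 CPM in WT_1 to WT_5. Het_6, Het_7, WT_3, WT_4 and WT_5 held the 5 lowest levels, and the log2 fold change was 0.04 (SE 0.20, edgeR adjusted p = 0.992). SCAP, the SREBP escort (ENSG00000114650), had 74.3, 72.0, 85.3, 57.2 and 69.6 CPM in Het_6 to Het_10, against 85.4, 77.6, 80.2, 85.9 and 74.0 CPM in WT_1 to WT_5. Het_9 and Het_10 were the lowest libraries, and the genotypes overlapped (log2 fold change -0.17, SE 0.11, edgeR adjusted p = 0.988).

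STARD4, a carrier of cholesterol between membranes (ENSG00000164211), had 28.6, 32.4, 29.1, 44.7 and 42.0 CPM in Het_6 to Het_10, against 37.2, 36.2, 28.4, 32.5 and 33.1 CPM in WT_1 to WT_5. Het_9 and Het_10 lay above every other library, and the genotypes overlapped (log2 fold change 0.08, SE 0.15, edgeR adjusted p = 0.989). SREBF1 averaged 69.1 ± 14.8 CPM for CREBBP+/- libraries, against 70.3 ± 17.3 CPM for CREBBP+/+ libraries. INSIG1, the sterol-responsive SREBP retention factor, averaged 97.5 ± 16.3 CPM for CREBBP+/- libraries, against 96.8 ± 14.2 CPM for CREBBP+/+ libraries, with a log2 fold change of 0.01 (95% confidence interval -0.29 to 0.31).

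Promoters of 31 of the 35 members were found in RefSeq (GRCh38.p14), as 250 bases before to 50 bases after the start. Those of SREBF2, MSMO1 and LSS are shown because their levels followed library clusters in 3 different ways, in lower case with matches in capitals to 3 motifs searched on both strands: TCACNCCAC (a sterol regulatory element), CACGTG (an E-box that SREBP-1 can also bind) and CCAAT (the NF-Y box, which reads ATTGG on the other strand). In the windows shown, no match of one motif overlaps a match of another.
SREBF2: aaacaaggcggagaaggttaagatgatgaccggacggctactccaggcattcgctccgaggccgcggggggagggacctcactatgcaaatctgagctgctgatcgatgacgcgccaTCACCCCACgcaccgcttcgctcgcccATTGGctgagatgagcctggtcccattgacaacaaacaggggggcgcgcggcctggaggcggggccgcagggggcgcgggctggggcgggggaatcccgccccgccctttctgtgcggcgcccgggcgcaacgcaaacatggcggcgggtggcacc
MSMO1: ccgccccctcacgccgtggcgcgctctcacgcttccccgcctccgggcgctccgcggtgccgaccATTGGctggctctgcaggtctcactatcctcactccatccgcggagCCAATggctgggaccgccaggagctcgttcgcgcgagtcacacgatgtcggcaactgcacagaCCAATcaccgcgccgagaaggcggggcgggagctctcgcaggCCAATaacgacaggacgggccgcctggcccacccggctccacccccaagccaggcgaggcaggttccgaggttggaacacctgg
LSS: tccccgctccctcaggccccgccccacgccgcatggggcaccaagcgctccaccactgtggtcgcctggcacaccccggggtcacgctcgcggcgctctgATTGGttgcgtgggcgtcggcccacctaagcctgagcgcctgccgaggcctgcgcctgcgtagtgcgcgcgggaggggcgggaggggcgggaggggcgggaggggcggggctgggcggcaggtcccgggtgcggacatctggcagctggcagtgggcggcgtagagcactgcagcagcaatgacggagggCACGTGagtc
The SREBF2 window is chr22:41832855-41833154, plus strand, that of MSMO1 is chr4:165327419-165327718, plus strand, and that of LSS is chr21:46228725-46229024, minus strand. SREBF2, which was 1.49-fold higher in Het_9 and Het_10 and 1.51-fold higher in Het_8, WT_1 and WT_2 than in the cluster of 5, was the only one of the 31 with TCACNCCAC, which 1.16% of promoters of genes tested hold. MSMO1, higher in Het_9 and Het_10, held 4 matches to CCAAT. LSS, lower in Het_8, WT_1 and WT_2, held 1 match to CCAAT and 1 to CACGTG.

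The CCAAT letters lay in 8 of 9 promoters of squalene to cholesterol enzymes (88.9%), in 15 of 21 sterol gene promoters (71.4%) and in 5 of 10 promoters of the fatty acid genes, against 37.6% of 9432 promoters of genes tested. CACGTG lay in 5 of 31 member promoters (16.1%; SCAP, ELOVL5, INSIG1, SC5D and LSS), against 10.5% of promoters of genes tested. A match describes letters in a window of 300 bases and says nothing of binding in these cells, and a promoter without one may hold other forms of the motif.

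**Figure D2:**
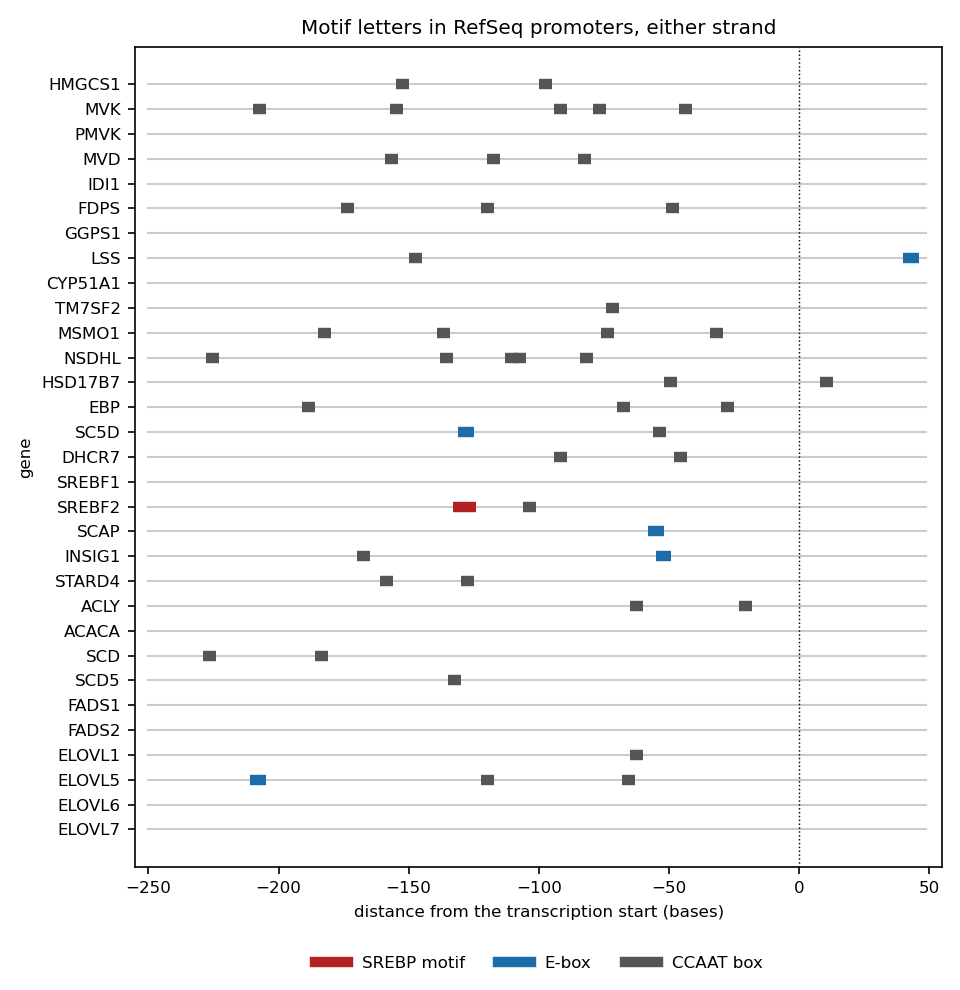
Positions of the 3 motifs, in bases from the annotated start, in the RefSeq promoter windows of the members, 1 line per gene. CCAAT matches occur in 20 of 31 windows and TCACNCCAC in 1, that of SREBF2.

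The 3 enzymes that make palmitate passed neither test. FASN, fatty acid synthase (ENSG00000169710), had 340, 336, 427, 342 and 429 CPM in Het_6 to Het_10, against 589, 449, 388, 363 and 334 CPM in WT_1 to WT_5. WT_1 was the highest and the genotypes overlapped (log2 fold change -0.18, SE 0.16, edgeR adjusted p = 0.988). ACLY, ATP citrate lyase, which supplies cytosolic acetyl-CoA (ENSG00000131473), had 380, 392, 348, 362 and 367 CPM in Het_6 to Het_10, against 371, 340, 372, 328 and 346 CPM in WT_1 to WT_5. These ranges overlapped and varied little (log2 fold change 0.07, SE 0.07, edgeR adjusted p = 0.989). ACACA, the cytosolic acetyl-CoA carboxylase, averaged 89.6 ± 5.93 CPM for CREBBP+/- libraries, against 84.1 ± 20.1 CPM for CREBBP+/+ libraries.

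Of the 4 desaturases, SCD5 alone showed no overlap between genotypes. SCD5 (ENSG00000145284, chromosome 4, 82629539 to 82798796, minus strand) had 5.55, 3.18, 13.6, 18.3 and 21.9 CPM in Het_6 to Het_10, against 1.29, 3.06, 0.947, 0.165 and 0.0521 CPM in WT_1 to WT_5. Het_10 and Het_9 were highest and WT_5 and WT_4 lowest; the genotypes did not overlap, but Het_7 and WT_2 nearly met. These levels rest on 130, 66, 249, 199 and 470 counts in Het_6 to Het_10, and on 21, 56, 21, 3 and 1 counts in WT_1 to WT_5. The mean was 11.3-fold higher in CREBBP+/- libraries, and edgeR gave a log2 fold change of 3.50 with a standard error of 0.87 (95% interval 1.58 to 5.42). SCD5 did not pass over all genes by edgeR (unadjusted p = 0.00215, adjusted p = 0.842) and passed by DESeq2 (adjusted p = 0.00827). In bulk RNA, fewer cells that express a gene and less RNA per cell cannot be told apart.

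The DESeq2 call of SCD5 was lost without Het_10 (DESeq2 adjusted p = 0.12) and without Het_9, where DESeq2 gave no adjusted p. Its log2 fold change by edgeR was 4.34 without WT_2 and 2.75 without Het_9 and Het_10 together.

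SCD, the main stearoyl-CoA desaturase, which makes oleate and palmitoleate (ENSG00000099194, chromosome 10, 100347233 to 100364826), had 150, 197, 274, 167 and 147 CPM in Het_6 to Het_10, against 330, 263, 133, 110 and 93.3 CPM in WT_1 to WT_5. The 3 libraries of the cluster of Het_8, WT_1 and WT_2 were the highest, and the log2 fold change was 0.01 (SE 0.35, edgeR adjusted p = 0.997). Compared per kilobase of exon, SCD5 made up 4.4, 1.96, 5.78, 11.9 and 15.6% of the summed SCD and SCD5 level in Het_6 to Het_10, against 0.485, 1.42, 0.875, 0.186 and 0.0692% in WT_1 to WT_5. SCD thus held the larger share in every library, and the summed level of the pair was 38.6 ± 9.97 CPM per kilobase for CREBBP+/- libraries, against 35.7 ± 20.1 CPM per kilobase for CREBBP+/+ libraries (± SD over 5 libraries each), which overlapped.

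FADS1, the delta-5 desaturase of polyunsaturated fatty acids (ENSG00000149485), had 60.8, 66.7, 62.8, 80.0 and 66.3 CPM in Het_6 to Het_10, against 56.0, 62.4, 58.6, 64.7 and 49.6 CPM in WT_1 to WT_5. Het_9 was highest and WT_5 lowest, and the ranges overlapped (log2 fold change 0.21, SE 0.10, edgeR adjusted p = 0.977). FADS2, the delta-6 desaturase, chosen after its values were seen, had 57.7, 64.6, 28.1, 54.4 and 51.2 CPM in Het_6 to Het_10, against 37.5, 56.2, 58.1, 61.2 and 29.8 CPM in WT_1 to WT_5. Het_8, WT_5 and WT_1 were low, across both genotypes.

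Of the 4 elongases, ELOVL7 was higher in every CREBBP+/- library. ELOVL7 (ENSG00000164181, chromosome 5, 60751791 to 60844274, minus strand) had 1.75, 2.99, 1.25, 4.5 and 2.56 CPM in Het_6 to Het_10, against 0.863, 0.818, 0.631, 0.604 and 0.26 CPM in WT_1 to WT_5. Het_9 was highest, WT_5 lowest, and the genotypes did not overlap. The values rest on 41, 62, 23, 49 and 55 counts in Het_6 to Het_10, and on 14, 15, 14, 11 and 5 counts in WT_1 to WT_5. The mean was 4.11-fold higher in CREBBP+/- libraries, with 2.02 as its log2 fold change (SE 0.42, 95% interval 1.09 to 2.95). By edgeR the unadjusted p was 0.000596 and the adjusted p 0.649, and by DESeq2 the adjusted p was 0.00922. The DESeq2 call was lost without Het_7 (adjusted p = 0.061), Het_10 (0.0717) or WT_4 (0.061), and without Het_9 DESeq2 gave no adjusted p.

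ELOVL6, which lengthens palmitate to stearate (ENSG00000170522), had 26.5, 25.7, 22.2, 19.2 and 17.9 CPM in Het_6 to Het_10, against 8.94, 8.62, 27.2, 15.7 and 14.7 CPM in WT_1 to WT_5. WT_3 was the highest of all and the other 4 CREBBP+/+ libraries were the lowest, so a single library made the genotypes overlap. The log2 fold change was 0.57 (SE 0.30, edgeR adjusted p = 0.984, DESeq2 adjusted p = 0.853). Without WT_3, the library that made the overlap, it was 0.89 by edgeR, and DESeq2 then called it (adjusted p = 0.0274). Leaving out the highest CREBBP+/+ library must raise the fold, so this call is no separate evidence of a genotype difference. WT_3 lay near Het_6 and Het_7 of its own cluster. With any other single library left out, DESeq2 did not call ELOVL6 (adjusted p from 0.566 to 0.9999). Per kilobase of exon, ELOVL7 held 0.884, 1.4, 0.68, 1.86 and 1.01% of the summed level of the 4 elongases in Het_6 to Het_10, against 0.387, 0.386, 0.304, 0.261 and 0.106% in WT_1 to WT_5. ELOVL5, which acts on polyunsaturated fatty acids, averaged 123 ± 15.1 CPM for CREBBP+/- libraries, against 129 ± 6.68 CPM for CREBBP+/+ libraries, and ELOVL1, an elongase of very long saturated chains, averaged 32.9 ± 7.34 CPM for CREBBP+/-, against 35.6 ± 5.92 CPM for CREBBP+/+ libraries.

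**Figure D3:**
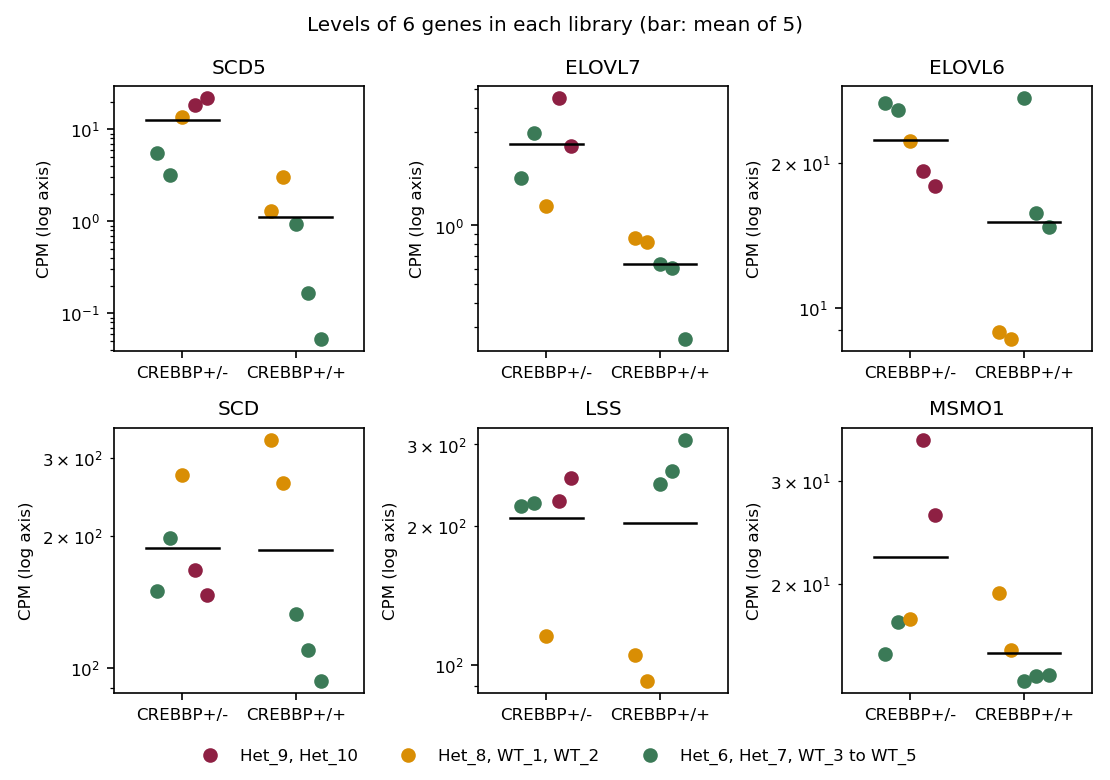
CPM on a log axis of SCD5, ELOVL7, ELOVL6, SCD, LSS and MSMO1 in each library (points, coloured by the 3 library clusters), CREBBP+/- left of CREBBP+/+, with a bar at each mean of 5. SCD5 and ELOVL7 separate by genotype (lowest CREBBP+/- levels 3.18 and 1.25 CPM, highest CREBBP+/+ levels 3.06 and 0.863 CPM), ELOVL6 would but for WT_3 (27.2 CPM), and SCD, LSS and MSMO1 follow the clusters.

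Promoters of SCD5, SCD and ELOVL7 are shown because SCD5 and ELOVL7 did not overlap between genotypes and SCD was high in 1 cluster, with capitals for the same 3 motifs.
SCD5: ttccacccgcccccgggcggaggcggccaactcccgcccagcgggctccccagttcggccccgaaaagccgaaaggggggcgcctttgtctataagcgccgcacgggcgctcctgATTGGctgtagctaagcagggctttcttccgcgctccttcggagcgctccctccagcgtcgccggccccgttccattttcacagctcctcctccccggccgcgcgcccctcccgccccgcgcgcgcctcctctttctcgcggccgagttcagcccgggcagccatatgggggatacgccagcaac
SCD: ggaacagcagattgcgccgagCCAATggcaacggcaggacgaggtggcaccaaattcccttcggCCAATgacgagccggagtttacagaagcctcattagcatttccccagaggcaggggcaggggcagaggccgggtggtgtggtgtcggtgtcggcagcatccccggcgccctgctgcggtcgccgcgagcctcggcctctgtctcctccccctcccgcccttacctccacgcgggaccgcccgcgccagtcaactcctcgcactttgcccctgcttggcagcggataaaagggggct
ELOVL7: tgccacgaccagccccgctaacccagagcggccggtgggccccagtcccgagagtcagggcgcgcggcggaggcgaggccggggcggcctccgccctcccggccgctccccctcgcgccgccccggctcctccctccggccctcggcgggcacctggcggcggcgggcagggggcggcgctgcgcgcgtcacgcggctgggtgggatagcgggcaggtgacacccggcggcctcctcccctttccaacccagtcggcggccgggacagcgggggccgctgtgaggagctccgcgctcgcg
The SCD5 window is chr4:82798747-82799046, minus strand, that of SCD is chr10:100346983-100347282, plus strand, and that of ELOVL7 is chr5:60844220-60844519, minus strand. The SCD promoter held 2 matches to CCAAT and that of SCD5 held 1, while the ELOVL7 window held none of the 3 motifs.

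The library clusters were then set against each other, as a description without a test because they were defined from expression. Het_9 and Het_10 held the highest levels of several sterol genes. Both exceeded every one of the other 8 libraries for 9 members: ACAT2, IDI1, FDPS, SQLE, MSMO1, HSD17B7, SC5D, STARD4 and SCD5. All but SCD5 are sterol genes, which makes 8 of 24 (33.3%), against 9.78% of all genes. Both lay below every other library for 1 member, SCAP, against 8.7% of all genes. Relative to the cluster of Het_6, Het_7 and WT_3 to WT_5, MSMO1 was 2.07-fold and SCD5 10.2-fold higher. They were the 2 members past 2-fold with no overlap (3.11% of all genes higher). By that measure 0 members were lower (3.17% of all genes). The cluster of 5 holds both genotypes, so the 10.2-fold of SCD5 mixes genotype with cluster. SCD5 had 18.3 and 21.9 CPM in Het_9 and Het_10. In the cluster of 5 it had 5.55 and 3.18 CPM in Het_6 and Het_7, against 0.947, 0.165 and 0.0521 CPM in WT_3 to WT_5. The median log2 ratio of Het_9 and Het_10 to the cluster of 5 was 0.25 over the 24 sterol members and -0.01 over all genes tested, and 26 of 35 members lay above 0 (74.3%, against 48.6% of all genes). The mean log2 CPM of the 24 sterol genes was 6.03 and 5.97 in Het_9 and Het_10, and 5.70 to 5.80 in the other CREBBP+/- libraries, against 5.75 to 5.90 in CREBBP+/+ libraries.

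The steps that were higher in Het_9 and Het_10 run from the first enzyme, ACAT2, to the late enzyme SC5D (each 1.19-fold the cluster of 5). Not every gene took part. For squalene to cholesterol enzymes the median log2 ratio to the cluster of 5 was 0.26 (10 of 11 above 0). For mevalonate and isoprenoid enzymes it was 0.05 (4 of 8 above 0). IDI1, SQLE (the squalene epoxidase) and CYP51A1 averaged 192, 124 and 76.1 CPM in Het_9 and Het_10, against 128, 103 and 49.2 CPM in the cluster of 5. CYP51A1 did not exceed every other library, as WT_1 had 78.3 CPM and Het_10 had 72.2 CPM. HMGCS1, at the entry of the pathway, and SREBF1 averaged 77.9 and 54.6 CPM in Het_9 and Het_10, against 91.6 and 74.3 CPM in the cluster of 5. MVK, PMVK, GGPS1, LSS and SCAP also averaged less in Het_9 and Het_10 than in the cluster of 5. Of the stromal markers, DCN had 1.29 CPM in Het_9 and 0.885 CPM in Het_10 and was at 0 in the other 8 libraries, COL1A2 was at 0 in all, and the list summed to at most 2.3 CPM for CREBBP+/- libraries, against 0.677 CPM for CREBBP+/+ libraries. The part of these transcripts, and of the low depth of Het_9, in the result was not tested.

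**Figure D4:**
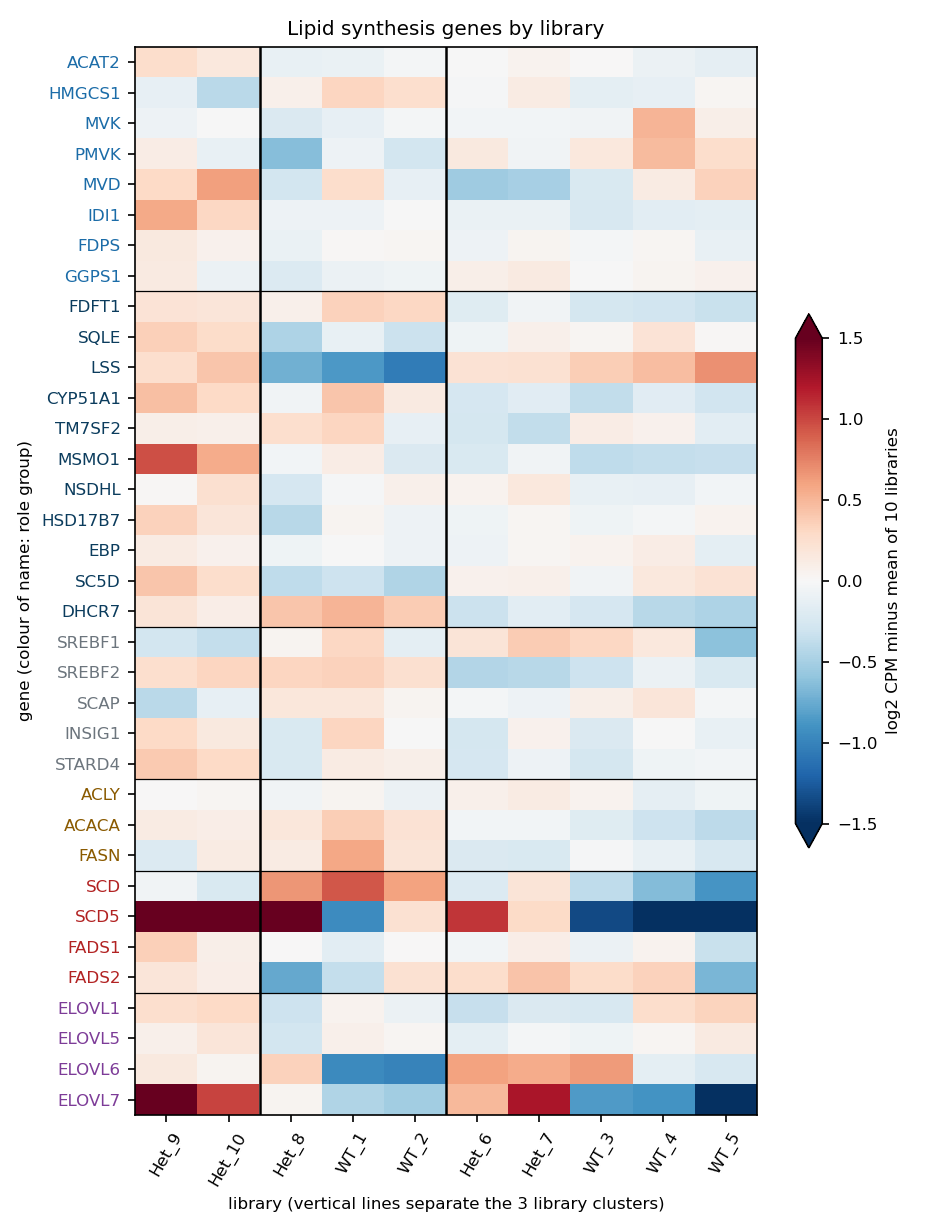
Log2 CPM of each of the 35 members in each library, as the difference from the gene's mean over the 10 libraries, with libraries ordered by cluster and genes by role. Sterol genes such as MSMO1 and IDI1 are above their mean in Het_9 and Het_10, LSS is low and SCD high in Het_8, WT_1 and WT_2, and SCD5, whose colours reach the ends of the scale at -1.5 and 1.5, ranges most widely.

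The cluster of Het_8, WT_1 and WT_2 differed from the cluster of 5 in another way. SCD averaged 289 CPM in Het_8, WT_1 and WT_2 and 137 CPM in the cluster of 5, and was 2.12-fold higher (4.39% of all genes past 2-fold with no overlap). LSS averaged 104 CPM in Het_8, WT_1 and WT_2 and 252 CPM in the cluster of 5, and was 2.42-fold lower (6.63% of all genes). These were the members past 2-fold, 1 in each direction. All 3 libraries lay above the cluster of 5 for 8 members (IDI1, FDFT1, CYP51A1, DHCR7, SREBF2, ACACA, FASN and SCD; 22.9%, against 21.9% of all genes), and below it for 5 (PMVK, GGPS1, SQLE, LSS and SC5D; 14.3%, against 23.9% of all genes). These shares are near or under those of all genes. Within the pathway the directions were mixed: along the route from squalene synthesis to cholesterol, FDFT1 was 1.38-fold higher, SQLE and LSS were 1.27-fold and 2.42-fold lower, CYP51A1 was 1.35-fold higher, SC5D was 1.39-fold lower and DHCR7 was 1.68-fold higher. EPCAM, listed as an epithelial marker, had 13.7, 3.33 and 1.42 CPM in Het_8, WT_1 and WT_2, against 19.8 to 26.7 CPM in the cluster of 5, while KRT8, KRT18 and CDH1 were at most 0.164 CPM in any library, and their part in the result was not tested.

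**Figure D5:**
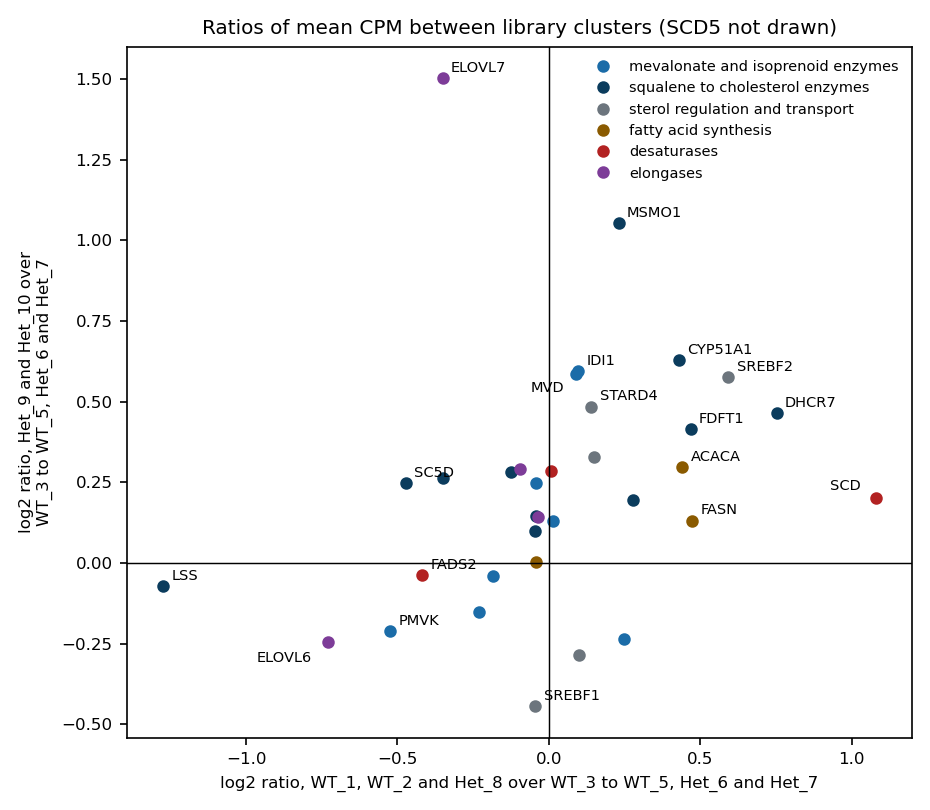
Log2 ratio of mean CPM of each member but SCD5 in Het_9 and Het_10 (vertical axis) and in Het_8, WT_1 and WT_2 (horizontal axis) to the cluster of Het_6, Het_7 and WT_3 to WT_5. SCD lies farthest right (1.08) and LSS farthest left (-1.27), 17 of 24 sterol genes lie above 0 on the vertical axis, and SCD5 (3.34 on the vertical axis) is beyond the plotted range and not drawn.

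With the 3 clusters as a covariate, the genotypes were compared within the 2 clusters that hold both. The edgeR test again called 0 members (0% of all genes). At an unadjusted p under 0.05 it named 7 members (20%, against 12.7% of all genes), in both directions. Of these, SCD5, ELOVL6 and ELOVL7 were higher in CREBBP+/- libraries. PMVK, MVD, ELOVL1 and ELOVL5 were lower (log2 fold changes of -0.32, -0.52, -0.37 and -0.19). DESeq2 with the clusters called 3 members (MVD, SCD5 and ELOVL7; 8.57%, against 1.67% of all genes). SCD5 had 3.04 as its log2 fold change in this fit (SE 0.51, edgeR adjusted p = 0.168, DESeq2 adjusted p = 2.905e-06), and ELOVL7 one of 1.67 (SE 0.42, edgeR adjusted p = 0.217, DESeq2 adjusted p = 0.0457). MVD was lower, at -0.52 on the log2 scale (SE 0.14, edgeR adjusted p = 0.239, DESeq2 adjusted p = 0.0431), against -0.10 (SE 0.23) without the clusters. ELOVL6 had 0.76 (SE 0.23, edgeR adjusted p = 0.274, DESeq2 adjusted p = 0.0646).

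Within the mixed clusters, most sterol genes had no common direction by genotype. Of the 24 sterol genes, 1 was higher in CREBBP+/- in both mixed clusters (4.17%, against 24.5% of all genes) and 8 were lower in both (33.3%, against 26.3% of all genes). The log2 fold change of MSMO1 with the clusters was 0.15 (SE 0.12) and that of IDI1 0.04 (SE 0.07), both by edgeR. An edgeR interaction test of whether the genotype difference differs between the mixed clusters called 0 members (0.259% of all genes), and 6 had an unadjusted p under 0.05 (FDFT1, LSS, NSDHL, ACACA, SCD and ELOVL6; 17.1%, against 14.7% of all genes). It rests on 1 CREBBP+/- library, Het_8, in the cluster with WT_1 and WT_2.

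Of 7 lists with 99 other genes of sterol and lipid metabolism, 89 were tested. By edgeR 0 rose and 0 fell, 4 had an unadjusted p under 0.05 (2 higher and 2 lower, against 2.38% and 2.6% of all genes), and DESeq2 also called 0. Their median log2 fold change was -0.0012, and 44 of 89 lay above 0, against 47.6% of all genes. HACD2, a dehydratase of the elongation cycle in which ELOVL enzymes act, had 73.1, 66.1, 67.4, 78.7 and 75.8 CPM in Het_6 to Het_10, against 60.5, 58.3, 65.4, 57.3 and 57.1 CPM in WT_1 to WT_5. The genotypes did not overlap, by a small margin (log2 fold change 0.27, SE 0.08, edgeR adjusted p = 0.842). ELOVL4, an elongase of very long chains, averaged 7.64 ± 4.06 CPM for CREBBP+/- libraries, against 2.58 ± 1.5 CPM for CREBBP+/+ libraries, with Het_9 and Het_10 highest (log2 fold change 1.56, SE 0.47, edgeR adjusted p = 0.842). ELOVL2, an elongase of polyunsaturated fatty acids, averaged 7.45 ± 3.81 CPM for CREBBP+/- libraries, against 2.90 ± 2.79 CPM for CREBBP+/+ libraries (log2 fold change 1.35, SE 0.73, edgeR adjusted p = 0.986). Het_9 and Het_10 were again highest (11.6 and 11.4 CPM). The genotypes overlapped, as Het_6, Het_7 and Het_8 (5.51, 3.14 and 5.67 CPM) lay below WT_4 (7.36 CPM). Leaving out 1 library, the log2 fold change of ELOVL2 ranged from 1.05 to 2.04, the highest without WT_4.

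In the uptake and storage list, NPC1, which exports cholesterol from lysosomes, and SCARB1, a lipoprotein receptor, had log2 fold changes of 0.21 (SE 0.13) and -0.32 (SE 0.26). For the other lists, the 3 genes with the smallest unadjusted p had log2 fold changes between -0.19 and 0.14 for sterol and isoprenoid enzymes (ERG28, COQ2 and PGGT1B) and between -0.12 and 0.17 for sterol sensing (FAF2, MBTPS2 and NR1H2). They were between -0.35 and 0.23 for fatty acid oxidation (CPT1B, ACADVL and ECHS1) and between -0.37 and -0.18 for triglyceride and phospholipid synthesis (DGAT1, AGPAT1 and CEPT1). In the list on lipogenic supply, ACSS2, the acetyl-CoA synthetase, had a log2 fold change of -1.34 with a large error (SE 0.92), which was -2.11 without Het_7 and -0.52 without WT_5. MECR had -0.28 (SE 0.16) and ACSL1 had 0.15 (SE 0.11).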

How the data were processed

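A single table of unnormalized counts, by Ensembl gene and library, was deposited by the authors. STAR, featureCounts, FastQC and DESeq2 are named in the submitters' processing notes, along with GRCh38, but not their roles. Annotation and strandedness of counting: not given in the sources used here. Columns of CREBBP+/+ libraries match labels by name; those of CREBBP+/- libraries bear numbers absent from the labels and were assigned to the group only.

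Identifiers were matched to symbols (20804 of 21174), coordinates and overlapping exons came from GENCODE on GRCh38, and promoters from RefSeq. Genes were filtered with filterByExpr (minimum count 10, minimum total 15), which left 11961. CREBBP+/- was compared with CREBBP+/+ (5 libraries each) with edgeR 4.0.16 (quasi-likelihood F-test, R 4.3.3), with TMM factors, robust dispersions, no covariate and Benjamini-Hochberg adjustment over all genes tested at 0.05, two-sided. Log2 CPM used a prior count of 2. The script was tested on simulated data. Alternatives were DESeq2 1.42.0, limma-voom (3.58.1), DESeq2 size factors in edgeR, no filter, 1 CPM in 5 libraries, leaving out each library, leaving out Het_9 with Het_10, and library clusters as a covariate. DESeq2 under the last 3 of these and with no filter was added after the data were seen.

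Full values are given for members called by edgeR or DESeq2, members with no overlap, up to 2 per role with the smallest p, and members past 2-fold between clusters with no overlap. For other lists the 3 genes with the smallest p are named. SREBF2, MVD and FADS2 were added after their values were seen. Members and lists were chosen with earlier results of these data known. Single-gene results of some list genes are not reported here.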

Additional observations from a re-analysis of the deposited data

Results flagged for a closer look

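Within the 5 libraries of a genotype, single libraries far from the rest were looked for in log2 CPM of each member, which made 70 groups. A gap large enough to stand out occurred in 2 of them, and about 1 in 20 groups (3.5) would show one by chance. Both were in Het_8, the CREBBP+/- library that clusters with WT_1 and WT_2. Log2 CPM of LSS in Het_8 was 6.85, the lowest of its group, with the next CREBBP+/- library at 7.79. Log2 CPM of FADS2 in Het_8 was 4.82, again the lowest, with the next at 5.68.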

How the results depend on the processing

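No paired analysis was possible because the CREBBP+/- columns carry numbers that no label carries. DESeq2 called 32 genes and 2 members (SCD5 and ELOVL7), where edgeR called 0 and 0. Leaving out 1 library, edgeR called 0 to 1 genes, and 0 members each time; the 1 gene came without Het_6. Members with no overlap numbered 2 to 3. DESeq2 called 13 to 105 genes and 0 to 3 members when 1 library was left out. With Het_9 and Het_10 both left out it called 0 members, but it then gave SCD5, ELOVL7 and ELOVL6 no adjusted p. Their log2 fold changes in that DESeq2 fit were 2.75, 1.66 and 0.73. With clusters in the model DESeq2 called 3 members. The median log2 fold change of the 5 genes of sterol regulation and transport was -0.14 when Het_9 and Het_10 were left out and -0.13 with clusters in the model, against 0.01. Directions near 0 reversed. Without Het_9 and Het_10, the log2 fold change of SC5D was -0.0020, that of STARD4 -0.155, that of LSS -0.11 and that of SCARB1 0. With the clusters it was -0.033 for SC5D, -0.14 for STARD4 and -0.10 for LSS. Leaving out 1 library, it ranged from -0.17 to 0.32 for SCD, from -0.15 to 0.23 for LSS and from -0.021 to 0.15 for STARD4. The cause was not tested. DESeq2 size factors, limma-voom, no filter and 1 CPM in 5 libraries reversed 0 of the 35 single genes named by rule, members or not. The counts of SCD5 and ELOVL7 in CREBBP+/+ libraries, as low as 1 and 5, limit the precision of their folds.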
